A study of Homo sapiens with 2 samples.

Results

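The genes described here are 8 genes for the building blocks of intermediate filaments: the keratin genes KRT8, KRT18, KRT19 and KRT23, the vimentin gene VIM, and the lamin genes LMNA, LMNB1 and LMNB2. They were taken by gene symbol from the deposited table of A4368 and control values, and all 8 had a value, out of 11511 genes with values. RNA-seq was done on Hep3B, a human liver cancer (hepatocellular carcinoma) line in long use, with 1 library from cells treated for 24 h with A4368 at 25 µM and 1 library from cells left without treatment. The sources name A4368 by its code alone. Both were grown in DMEM with fetal bovine serum, and whether the untreated cells received a vehicle is not given in the sources used here. Values were read as FPKM, in which fragment numbers are divided by transcript length and by the library's mapped total, so that levels of different genes can be set side by side. There were no replicate cultures, so the values have no error between cultures, no difference has a test, and each one is a difference between these libraries.

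Intermediate filaments are rope-like polymers of the cytoplasm and the nucleus. In the cytoplasm of hepatocytes, keratin filaments are built from pairs of a type I and a type II keratin, with KRT18 as the type I and KRT8 as the type II partner, while KRT19 is known from bile duct and progenitor cells and vimentin from mesenchymal cells and many cultured lines. Lamins form the meshwork under the inner nuclear membrane, A-type lamins from LMNA and B-type lamins from LMNB1 and LMNB2.

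Sequences at start sites are shown for KRT8, VIM, LMNB1 and LMNB2, which cover a keratin, vimentin and both B-type lamins. A single start is shown per gene and, for LMNB1 with 2 starts, it is the one near more annotated transcript starts. The windows were not aligned with each other. RefSeq windows on GRCh38.p14 were matched by symbol for 5 of the 8 genes, with 8 starts in all, LMNA included; KRT18, KRT19 and KRT23 were not matched. Each line gives the 250 bases before the start, 5′ to 3′ on the gene's strand. Capitals mark matches on either strand to any of 6 motifs, which were TATAAA for the TATA box, CCAAT for the box of that name, GGGCGG for the GC box, TGANTCA for AP-1, GGAATG for TEAD factors and CCGGAA for ETS factors, where N is any base and matches of different motifs may overlap.
KRT8, chr12:52926470-52926719, minus strand: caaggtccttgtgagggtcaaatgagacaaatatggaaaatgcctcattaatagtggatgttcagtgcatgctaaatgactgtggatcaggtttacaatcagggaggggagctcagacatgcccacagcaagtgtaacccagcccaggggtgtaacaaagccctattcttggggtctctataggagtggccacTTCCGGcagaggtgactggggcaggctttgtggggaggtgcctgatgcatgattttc
VIM, chr10:17227991-17228240, plus strand: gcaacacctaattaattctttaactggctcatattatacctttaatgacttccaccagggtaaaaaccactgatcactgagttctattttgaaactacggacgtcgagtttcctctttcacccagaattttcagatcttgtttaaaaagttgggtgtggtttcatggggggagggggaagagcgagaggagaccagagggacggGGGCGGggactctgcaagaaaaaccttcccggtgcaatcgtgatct
LMNB1, chr5:126776886-126777135, plus strand: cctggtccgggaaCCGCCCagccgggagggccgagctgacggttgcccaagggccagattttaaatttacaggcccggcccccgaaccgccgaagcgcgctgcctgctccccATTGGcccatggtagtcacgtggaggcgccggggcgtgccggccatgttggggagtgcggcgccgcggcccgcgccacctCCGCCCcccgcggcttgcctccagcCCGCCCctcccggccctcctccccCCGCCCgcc
LMNB2, chr19:2456960-2457209, minus strand: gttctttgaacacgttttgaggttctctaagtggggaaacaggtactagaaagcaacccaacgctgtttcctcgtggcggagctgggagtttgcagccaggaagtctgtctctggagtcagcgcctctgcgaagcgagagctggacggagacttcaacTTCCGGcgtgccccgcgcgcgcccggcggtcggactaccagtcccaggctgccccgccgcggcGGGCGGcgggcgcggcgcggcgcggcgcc

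The windows differed in base composition. GC made up 75.6% of the LMNB1 window shown and 66.4% of the LMNB2 window, against 46% for VIM and 50.4% for KRT8, beside a median of 58% over all 35116 windows. The other LMNB1 window, near the start of 1 of 8 GENCODE transcripts, had 48.4% GC and 0 matches. The LMNA windows, not shown, had 68.8%, 68.4% and 72.4% GC, and each held a GC box match. The LMNB1 window shown held 5 matches, to the GC box and the CCAAT box, LMNB2 held a GC box and an ETS match, VIM held a single GC box and KRT8 a single ETS match. Of all windows of this length, 42.6% held the GC box, 32% the CCAAT box and 14.5% the ETS letters. The TATA box, AP-1 and TEAD letters, which 10.7%, 6.57% and 11.9% of all windows hold, were not in these 4 windows. The LMNB1 start shown lies within 100 bases of the start of 5 of 8 GENCODE transcripts of the gene, the LMNB2 start of 1 of 6, the VIM start of 1 of 10 and the KRT8 start of 1 of 17, so the windows of KRT8, VIM and LMNB2 each stand for a single annotated start. A match is a description of the letters and not a binding site.

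All 8 genes had lower values in the A4368 library than in the control. Of 11238 genes whose libraries averaged at least 1 FPKM, 48.0% were lower, and of the 1884 genes averaging at least 50 FPKM, the range that holds all 8, 65.6% were lower. The median log2 ratio of A4368 over control, with 1 FPKM added to both values, was -0.29 for the 8 genes, 0.0098 over all 11238 genes and -0.055 over the 1884 genes. Limits of 1.5-fold and 2-fold were set on this scale. KRT23 was the gene of the 8 that was lower by at least 1.5-fold, and it also passed 2-fold. On the same scale, 2.12% of all 11238 genes were lower by at least 1.5-fold and 0.436% by at least 2-fold. None of the 8 was higher by 1.5-fold, against 1.08% of all genes. The counts over all genes moved with the setting. By at least 1.5-fold, 238 genes were lower and 121 higher with 1 FPKM added, 391 were lower and 288 higher with none added, and 217 were lower and 193 higher after rescaling the libraries without the 50 highest genes.

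**Figure D1:**
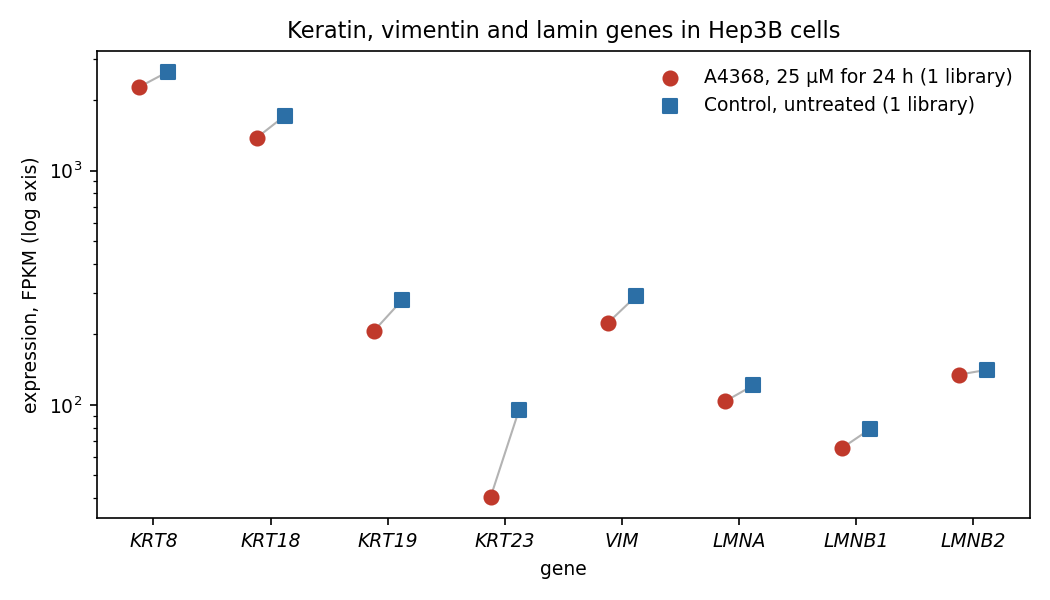
Expression of the 8 genes in FPKM on a log axis, with circles for the A4368 library and squares for the control library, 1 library each, joined by a line per gene. Every circle lies below its square, and the drop is steepest for KRT23, at 40.6 FPKM in A4368 cells and 94.8 FPKM in control cells.

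KRT8 and KRT18, the keratin pair of hepatocytes, were the most abundant of the 8. KRT8 stood at 2281 FPKM in A4368 cells, against 2640 FPKM in control cells, which placed it at rank 13 of the 11511 genes in A4368 cells and at rank 11 in control cells. KRT18 stood at 1380 FPKM in A4368 cells, against 1714 FPKM in control cells, at rank 35 in A4368 cells and rank 26 in control cells. Both partners were thus lower by modest amounts, KRT8 by 1.16-fold and KRT18 by 1.24-fold, with log2 ratios of -0.21 and -0.31. Among genes whose mean lay within 2-fold of its own, 5 of 43 had a ratio as low as that of KRT8 and 2 of 79 one as low as that of KRT18. The ratio of KRT8 to KRT18 FPKM was 1.65 in A4368 cells and 1.54 in control cells, so the type II partner had the higher FPKM in both libraries.

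Both genes share sequence with other genes. Of the distinct 31-base words in the protein-coding transcripts of KRT18, 51.5% occur in transcripts of other genes, among them 64 annotated KRT18 pseudogenes, and of those of KRT8 28.3% do. KRT8 words occur in 3847 other genes, of which 47 are annotated KRT8 pseudogenes and 1977 have values in the table, and KRT18 words in 69 other genes, of which 2 have values. KRT8 and KRT18 are neighbours on opposite strands of chromosome 12, and 16.3% of the annotated exonic bases of KRT18 are overlapped by exons of KRT8. The strandedness of the libraries is not given in the sources used here, and the part of shared reads in the ratios of this pair was not tested.

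KRT19, a type I keratin of bile duct and progenitor cells, and KRT23, another type I keratin, were present at lower levels. KRT19 stood at 206 FPKM in A4368 cells, against 279 FPKM in control cells, 1.35-fold lower with a log2 ratio of -0.43. Of 563 genes of similar mean, 12 had a ratio as low as that of KRT19. KRT23 stood at 40.6 FPKM in A4368 cells, against 94.8 FPKM in control cells, 2.33-fold lower with a log2 ratio of -1.20. None of the 2168 genes of similar mean had a ratio as low as that of KRT23, and their ratios had an SD of 0.20 log2 units. KRT23 ranked 2338 in A4368 cells and 1006 in control cells. Its ratio was 0.89 log2 units below that of KRT18 and 0.77 below that of KRT19, a description with no test between genes.

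Little sequence is shared by KRT23, of whose words 5.24% occur elsewhere, all in AC004231.1, which overlaps 6.41% of its annotated exonic bases on the opposite strand. For KRT19 the share was 10.6%, most of it with the pseudogene KRT19P1, and 0.82% of its words occur in KRT17, the other measured keratin that shares words with it.

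**Figure D2:**
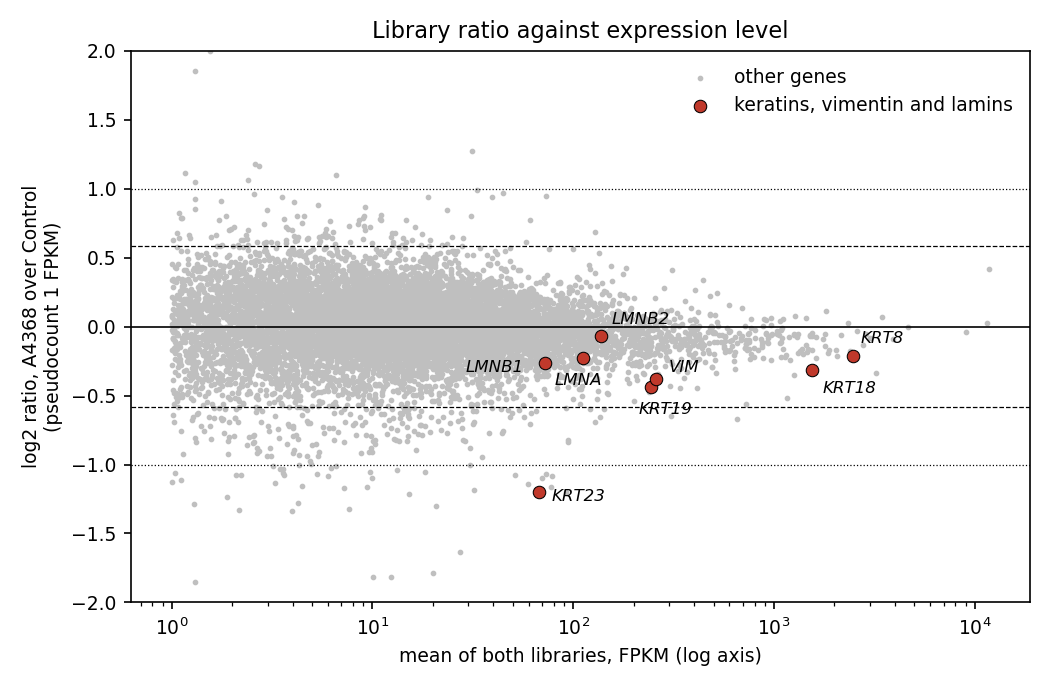
Log2 ratio of A4368 over control, with a pseudocount of 1 FPKM, against the mean of both libraries in FPKM on a log axis, for genes averaging at least 1 FPKM. Red circles are the 8 genes, grey points the others, dashed lines 1.5-fold and dotted lines 2-fold, and 7 genes beyond 2.0 log2 units are not drawn. KRT23 lies at -1.20, below the dotted line, while the other 7 lie between -0.43 and -0.07.

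The keratins beyond these 4 were few and low. Of 55 keratin genes looked up, 7 had values, and KRT10, KRT17 and KRT80 complete them. KRT80, a type II keratin, was lower by a fold close to that of KRT23, 2.32-fold, at 1.52 FPKM in A4368 cells against 3.54 FPKM in control cells, with a log2 ratio of -0.85. Of 2275 genes of similar mean, 34 had a ratio as low as that of KRT80. KRT10, a type I keratin of differentiated epidermis, had 12.3 FPKM in A4368 cells against 13.6 FPKM in control cells. KRT17, a type I keratin of basal and stressed epithelia, was the one keratin with a higher value, at 6.41 FPKM in A4368 cells against 6.14 FPKM in control cells. Of the words of KRT17, 30.1% occur in other genes.

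Summed over all 7 keratins, the transcripts amounted to 3928 FPKM in A4368 cells and 4751 FPKM in control cells, which was 0.733% of the summed FPKM of all genes in A4368 cells and 0.857% in control cells. Relative to control, the type I sum differed by -21.9% and the type II sum by -13.7% in A4368 cells. Type I over type II keratin FPKM was 0.72 in A4368 cells and 0.80 in control cells. KRT8 and KRT18 together made up 93.2% of keratin FPKM in A4368 cells and 91.6% in control cells. KRT19 made up 5.25% in A4368 cells and 5.88% in control cells, and KRT23 1.03% in A4368 cells and 2.0% in control cells. Of the 4 genes, KRT23 was the one whose share differed most in proportion, while their order was the same in both libraries.

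**Figure D3:**
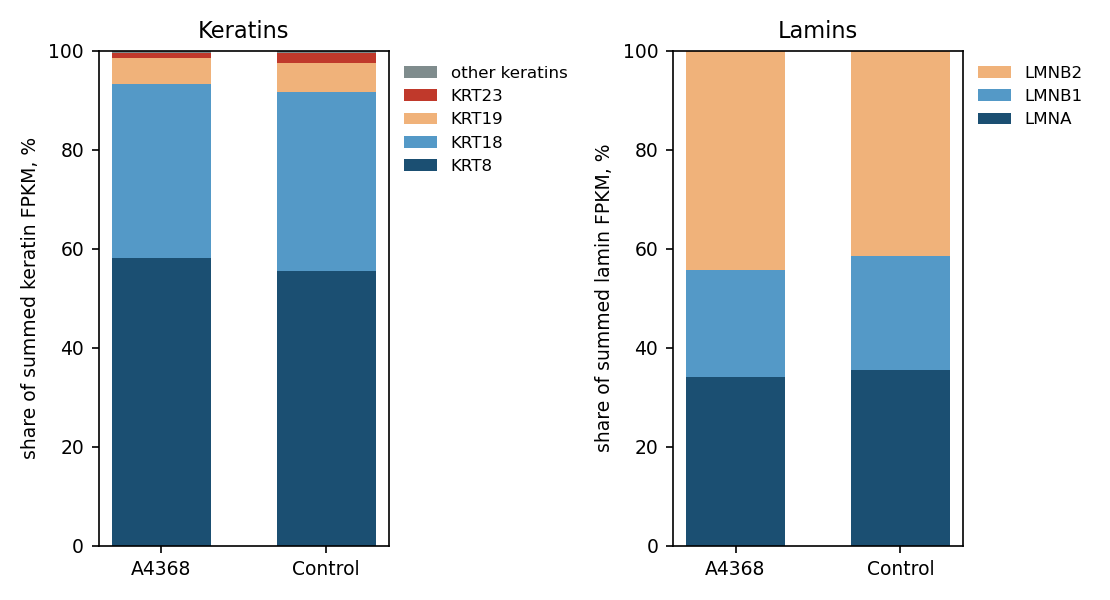
Shares of summed FPKM in percent for the 7 measured keratins (left, with KRT10, KRT17 and KRT80 joined as other keratins) and the 3 lamins (right), 1 bar per library. The KRT8 segment is 58.1% in A4368 cells and 55.6% in control cells, the KRT23 segment 1.03% in A4368 cells and 2.0% in control cells, and the LMNB2 segment is 44.4% in A4368 cells and 41.4% in control cells.

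VIM, the type III filament gene, stood at 224 FPKM in A4368 cells, against 291 FPKM in control cells, 1.30-fold lower with a log2 ratio of -0.38. Of 526 genes of similar mean, 18 had a ratio as low. VIM was expressed at a level close to that of KRT19 in both libraries, and its FPKM was 9.82% of that of KRT8 in A4368 cells and 11.03% in control cells. Of the words of VIM, 35.96% occur in other genes, mostly in VIM-AS1 and AL133415.1, which lie on the opposite strand and overlap 24.4% of its annotated exonic bases.

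Because vimentin also marks mesenchymal cells, markers of other cell types were read beside it. Of 10 stellate cell and fibroblast markers 3 had values, LUM and PDGFRA lower and RGS5 higher, with a sum of 14.2 FPKM in A4368 cells and 19.9 FPKM in control cells. Most of that sum was LUM, at 11.9 FPKM in A4368 cells against 17.9 FPKM in control cells, while RGS5 had 1.64 FPKM in A4368 cells against 0.98 FPKM in control cells. COL1A1, COL1A2, COL3A1, DCN, PDGFRB, ACTA2 and DES had no value, and neither had any of 7 endothelial markers. Of 7 leukocyte markers CD14, CD68 and LYZ had values, all 3 lower and summing to 39.9 FPKM in A4368 cells and 50.1 FPKM in control cells. LYZ differed most of the 3, at 9.48 FPKM in A4368 cells against 17.6 FPKM in control cells. All 8 hepatocyte and hepatoma markers had values, 6 lower and HNF4A and APOB higher. Their sum, most of it ALB, was 11748 FPKM in A4368 cells and 12179 FPKM in control cells, so the labelled liver cancer line carried its defining markers. Of 6 biliary markers KRT19, SOX9, EPCAM and SPP1 had values, and all 4, KRT19 among them, were lower with A4368. Their sum, most of it EPCAM and KRT19, was 513 FPKM in A4368 cells against 667 FPKM in control cells. SOX9 differed most in proportion, at 20.1 FPKM in A4368 cells against 41.2 FPKM in control cells, 2.05-fold lower. Beside these marker counts, 48.0% of all 11238 genes were lower, and 65.6% of the 1884 genes averaging at least 50 FPKM. In bulk RNA, fewer cells of a kind and less RNA per cell cannot be told apart, and the part of other cell types in the VIM values was not tested.

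Other cytoplasmic filament genes were lower too, NES by more than VIM, and SYNM and BFSP1 by little. Of 12 genes of types III to VI looked up, 4 had values, VIM included. All 4 were lower, beside 48.0% of all 11238 genes. They were also lower after subtraction of the median ratio, beside 47.4% of all genes, and after rescaling without the 50 highest genes, beside 39.1%. The median of the 4, with VIM counted, was -0.23 log2 units. NES, which encodes nestin, a large filament protein that copolymerises with vimentin, was 1.57-fold lower, at 13.6 FPKM in A4368 cells against 21.3 FPKM in control cells, a log2 ratio of -0.61 that was under 1.5-fold after rescaling without the 50 highest genes. Of 4546 genes of similar mean, 75 had a ratio as low as that of NES. SYNM, which encodes synemin, had 13.3 FPKM in A4368 cells against 14.1 FPKM in control cells, a log2 ratio of -0.08. BFSP1, a lens filament gene, had 1.42 FPKM in A4368 cells against 1.55 FPKM in control cells, a log2 ratio of -0.07. VIM thus lay between NES and the other 2 genes in the size of its difference.

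The lamins showed smaller differences than KRT23, KRT19 and VIM. LMNA, from which lamins A and C are spliced, stood at 104 FPKM in A4368 cells, against 121 FPKM in control cells, a log2 ratio of -0.22. The table gives 1 value per gene, so lamin A and lamin C cannot be separated. LMNB1 stood at 65.5 FPKM in A4368 cells, against 79.0 FPKM in control cells, a log2 ratio of -0.27. LMNB2 stood at 135 FPKM in A4368 cells, against 141 FPKM in control cells, a log2 ratio of -0.07 that shrank to -0.02 after rescaling without the 50 highest genes. Among genes of similar mean, 190 of 1345 were as low as LMNA, 183 of 2046 as low as LMNB1 and 498 of 1095 as low as LMNB2, so LMNB2 sat near the middle of its level class.

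The lamins kept the same order of levels in both libraries. LMNA over the sum of LMNB1 and LMNB2 was 0.52 in A4368 cells and 0.55 in control cells, and LMNB2 over LMNB1 was 2.06 in A4368 cells and 1.79 in control cells. LMNB2 was the most abundant lamin and LMNB1 the least abundant in both libraries. None of the words in the protein-coding transcripts of the 3 lamins occurs in another gene, while 5.58% of the annotated exonic bases of LMNB2 are overlapped by TIMM13 and MIR7108 on the same strand.

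Genes that anchor or surround these filaments had ratios on both sides of 0. Of 18 genes of cytolinkers and desmosomes, which fasten keratin filaments to cell junctions, 13 had values, with a median log2 ratio of -0.06. Of the 13, 10 were lower and 3 higher, or 8 and 5 after rescaling without the 50 highest genes. Of all 11238 genes, 48.0% were lower as deposited and 39.1% after that rescaling. EPPK1, which encodes the keratin-binding plakin epiplakin, was the one gene of this list past 1.5-fold with 1 FPKM added to both values, at 4.89 FPKM in A4368 cells against 2.57 FPKM in control cells, a plain ratio of 1.90-fold higher. Of 2843 genes of similar mean, 18 had a ratio as high as that of EPPK1. PKP3, a plakophilin gene named after its values were seen, had 0.861 FPKM in A4368 cells against 1.70 FPKM in control cells, a plain ratio of 1.97-fold lower, and its log2 ratio with 1 FPKM added was -0.53, short of 1.5-fold. The 3 most abundant were JUP, the plakoglobin gene, with 91.1 FPKM in A4368 cells against 108 FPKM in control cells, the desmosomal gene PERP with 84.5 FPKM in A4368 cells against 82.7 FPKM in control cells, and the desmoplakin gene DSP with 76.9 FPKM in A4368 cells against 80.0 FPKM in control cells. Thus DSP, the main anchor of keratin at desmosomes, was 1.04-fold lower and JUP 1.19-fold lower, beside 1.16-fold for KRT8. PERP was 1.02-fold higher.

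At the nuclear envelope, 17 of 18 genes of the inner nuclear membrane and the lamina had values, with a median of 0.03. None passed 1.5-fold, and 10 were higher and 7 lower, or 11 and 6 after rescaling without the 50 highest genes. The share of all genes that were lower was 48.0% as deposited and 39.1% after that rescaling. BANF1, a chromatin protein that bridges DNA to the envelope, had 203 FPKM in A4368 cells against 229 FPKM in control cells. TMPO, which encodes the lamin-binding LAP2 proteins, had 136 FPKM in A4368 cells against 151 FPKM in control cells, and the nuclear matrix gene MATR3 had 131 FPKM in A4368 cells against 136 FPKM in control cells. Of 6 genes of the LINC complex, which couples the lamina to the cytoskeleton, 5 had values, 3 higher and 2 lower, with a median of 0.02. SUN1, SUN2 and SYNE2 were the most abundant, and SUN1 had 58.9 FPKM in A4368 cells against 49.5 FPKM in control cells.

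Lamin precursors are farnesylated and trimmed, and all 6 genes looked up for these steps had values, with a median of 0.05. None passed 1.5-fold, and 4 were higher and 2 lower, beside 48.0% of all genes lower. FDPS, which makes the farnesyl donor, had 134 FPKM in A4368 cells against 156 FPKM in control cells. FNTA, a farnesyltransferase subunit gene, had 59.0 FPKM in A4368 cells against 66.8 FPKM in control cells. RCE1, the protease that removes the last residues after farnesylation, had 53.3 FPKM in A4368 cells against 48.8 FPKM in control cells.

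Of 15 genes for kinases, phosphatases, caspases and 14-3-3 proteins that act on filament proteins, 8 were lower and 7 higher, none past 1.5-fold. After rescaling without the 50 highest genes, 6 were lower and 9 higher, and the median moved from -0.03 to 0.02. Over all genes, 48.0% were lower as deposited and 39.1% after that rescaling, with medians of 0.0098 and 0.06. The most abundant were the 14-3-3 genes YWHAZ, with 441 FPKM in A4368 cells against 496 FPKM in control cells, and YWHAE, with 365 FPKM in A4368 cells against 389 FPKM in control cells, and the phosphatase gene PPP1CA, with 282 FPKM in A4368 cells against 262 FPKM in control cells.

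**Figure D4:**
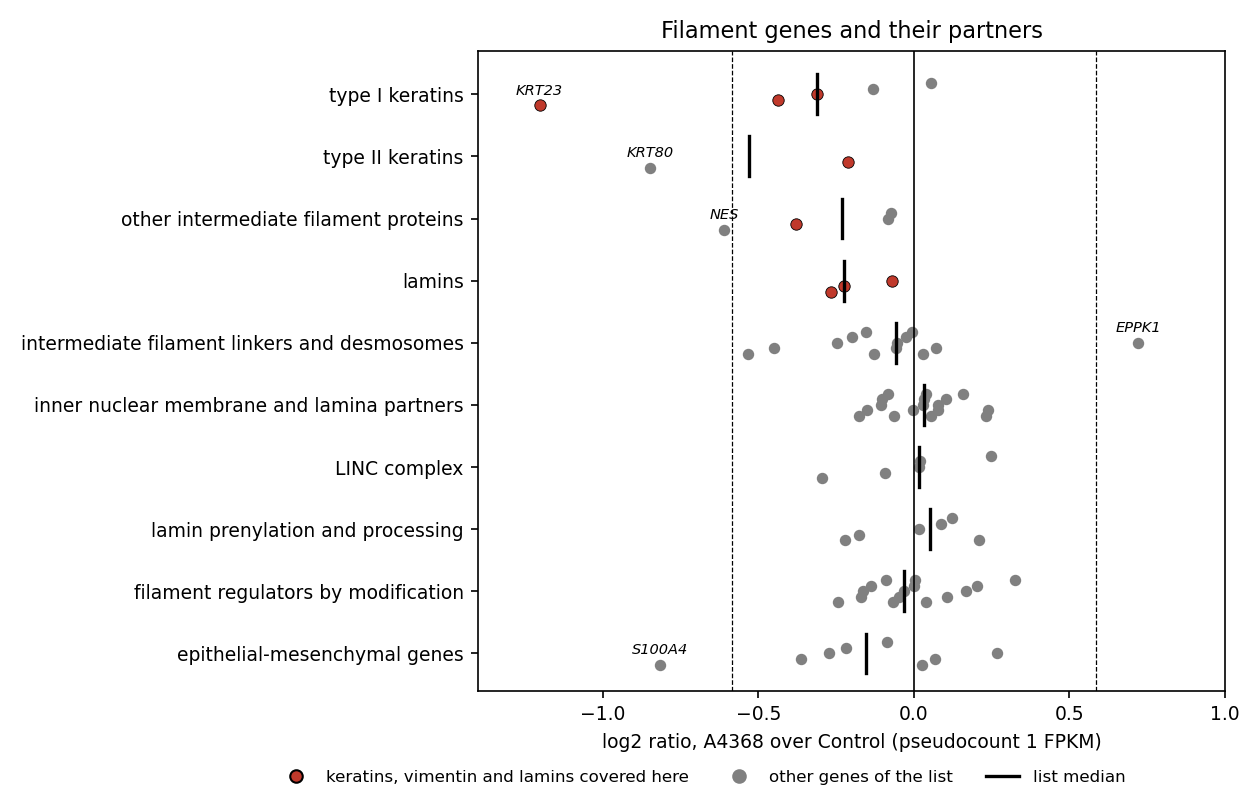
Log2 ratio of A4368 over control, with a pseudocount of 1 FPKM, for each gene averaging at least 1 FPKM in 10 lists, with the list median as a bar and 1.5-fold as dashed lines; red points are the 8 genes, and genes past 1.5-fold are named. The filament lists, which contain the 8 genes and hold 2 to 5 genes each, have medians between -0.53 and -0.22. The -0.53 is that of 2 type II keratins, KRT8 and KRT80. It was -0.21 with a filter at 5 FPKM, which leaves out KRT80, and -0.30 with a pseudocount of 5. The partner lists, epithelial-mesenchymal genes included, have medians between -0.15 and 0.05. The 6 filament genes outside the 8 have a median of -0.11, within the range of the partner lists, with 5 lower and 1 higher. Of all 11238 genes, 48.0% were lower.

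VIM and the keratins are read together in epithelial-mesenchymal transition, so 14 genes of that process were looked up. Of these 9 had values and 8 averaged at least 1 FPKM, with a median of -0.15. Of the 8, 5 were lower and 3 higher, beside 48.0% of all 11238 genes lower. The calcium-binding protein gene S100A4 was the one past 1.5-fold, at 0.867 FPKM in A4368 cells against 2.28 FPKM in control cells. EPCAM, an epithelial adhesion gene, had 282 FPKM in A4368 cells against 341 FPKM in control cells, and the fibronectin gene FN1 had 268 FPKM in A4368 cells against 312 FPKM in control cells. The third most abundant was CDH1, the E-cadherin gene, at 35.1 FPKM in A4368 cells against 33.4 FPKM in control cells. The mesenchymal cadherin gene CDH2 was also higher, at 33.6 FPKM in A4368 cells against 27.7 FPKM in control cells, as was the epithelial splicing factor gene ESRP2, at 21.1 FPKM in A4368 cells against 20.6 FPKM in control cells. The log2 ratio of ESRP2 was 0.03, while ESRP1 of the same list was lower, with a log2 ratio of -0.36. ESRP1 had 15.2 FPKM in A4368 cells against 19.8 FPKM in control cells. CDH2, ESRP2 and ESRP1 were named after their values were seen. CDH1, CDH2 and ESRP2 are the 3 higher genes, so epithelial and mesenchymal genes of this list lay on both sides of 0.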

How the data were processed

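RNA-seq was analysed in 2 libraries of Hep3B cells, 1 with A4368 and 1 untreated. The deposited table names no unit; its values were read as FPKM made by the authors, since the submitters' processing notes list Cufflinks, with TopHat2 2.0.12, Bowtie2 2.2.3 and hg19. Annotation and depth: not given in the sources used here, so no interval or detection floor was computed. The table had 24302 lines, of which 11511 gave values for a named gene. Genes with a mean under 1 FPKM (273) were left out. Ratios were log2((A4368 + 1)/(control + 1)), which understates the change of low genes; the 1.5-fold and 2-fold limits are on that scale, while folds of single genes are plain ratios. With 1 library per group no p-value was computed. Genes, lists and limits were chosen with earlier results of these data known. Named are the 8 genes, other measured filament genes, and in each list the genes past 1.5-fold and the 3 most abundant. Shared sequence was counted as 31-base words on either strand in GENCODE release 29 transcripts (GRCh38); sequences come from RefSeq. The ratio step was run on simulated data with large planted differences, which checked the arithmetic alone and not the spread between cultures. Python 3.11.15, numpy 2.4.6 and pandas 2.3.3 were used.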

Additional observations from a re-analysis of the deposited data

How the results depend on the processing

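Pseudocounts of 0.1 and 5, no filter, a filter at 5 FPKM, subtraction of the median ratio of genes averaging 10 FPKM or more, and rescaling to equal sums after leaving out the 50 highest genes were tried, and a plain ratio was added after the data were seen. All 8 genes were lower under each of them, KRT23 alone passing 1.5-fold. KRT23 lay between -1.22 and -1.13 and LMNB2 between -0.07 and -0.02 log2 units. Pseudocounts, filters and the plain ratio cannot change the direction of a gene's ratio, so only the subtraction and the rescaling could have done so. The type II keratin median was -0.69 with a pseudocount of 0.1, -0.30 with 5 and -0.21 at 5 FPKM, where KRT80 is left out and 0 genes of that list were lower by 1.5-fold, as with a pseudocount of 5. With a pseudocount of 5, 0 of the other filament, linker and epithelial-mesenchymal genes passed 1.5-fold, and with 0.1, 1 linker was lower. The filter at 5 FPKM left 0 linkers and 0 epithelial-mesenchymal genes past 1.5-fold and an other filament median of -0.38. Rescaling left 0 other filament genes past 1.5-fold and a median of 0.019 for the regulators by modification. It moved the median of all genes to 0.06 log2 units and the share of all genes that were lower from 48.0% to 39.1%. Over all genes, 369 were lower and 259 higher by 1.5-fold with a pseudocount of 0.1, 78 lower and 20 higher with 5, and 140 lower and 58 higher at 5 FPKM. No paired analysis was possible because each group has 1 library. Depth is unknown, so no counting error could be set beside any difference.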
